A study of Mus musculus with 96 samples.

Results

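Homeostatic microglia genes are described here as 9 genes, P2ry12, P2ry13, Tmem119, Cx3cr1, Sall1, Csf1r, Siglech, Gpr34 and Fcrls, taken by symbol from the 32594 genes of the count tables. All 9 were found and all 9 passed the filter on low counts in every comparison. The libraries came from bulk mRNA of the ipsilateral hippocampus, thalamus and hypothalamus of male C57BL/6 mice aged 8 to 10 weeks, collected 3 or 29 days post-injury (dpi). Each region and time point held 4 groups of 4 libraries, 96 libraries in all. Sham + VH mice had anesthesia and a scalp incision without opening of the skull and were given vehicle. TBI + VH mice had a controlled cortical impact, a piston blow to the exposed left cortex, and vehicle. Sham + CD and TBI + CD mice had the same procedures and were given candesartan, a blocker of the angiotensin II type 1 receptor. The daily dose was 0.1 mg per kg. In the 3 dpi cohort the drug was injected into the peritoneum 6, 24 and 48 h after surgery, and in the 29 dpi cohort an injection at 6 h was followed from 24 h by an osmotic pump, so time point and route of the drug cannot be told apart. All mice were wild type and all were perfused with saline before dissection. The 4 RNA samples of highest quality in each group had been chosen for sequencing. The labels do not say that equal numbers in different groups or regions mark 1 mouse, so p-values measure only the spread between these samples. Regions were dissected from the same brains, so libraries of different regions may share mice, and comparisons between regions treated them as independent.

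Microglia are the resident macrophages of the brain. In the undisturbed brain they depend on signalling through the receptor encoded by Csf1r, which binds CSF1 and IL34, and their identity is kept by transforming growth factor beta and by transcription factors such as SALL1 and PU.1. Genes such as P2ry12 and Tmem119 are widely used to mark this state, and are known to be expressed less when microglia become reactive. Csf1r and Cx3cr1 are also expressed by macrophages that enter from the blood.

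Library depth ranged from 6663629 to 38589791 counts with a median of 24708356, and the members' counts in a library ranged from 54, for Gpr34, to 9042, for Csf1r. In the hippocampus at 3 dpi the summed level of 8 choroid plexus genes was 4100 to 6419 CPM (counts scaled to the library size after TMM normalization) in 3 of 4 Sham + VH libraries and 170.6 CPM in the other one. It was 6.70 to 142 CPM in TBI + VH and 39.8 to 89.2 CPM in Sham + CD. Sham + VH libraries are the controls of several comparisons at once, so those comparisons are not independent. High choroid plexus sums also occurred in sham libraries of the thalamus at 3 dpi, of up to 3347 CPM. Calls of members at 3 dpi in the hippocampus and thalamus that were lost when choroid plexus level entered the fit are given with both values.

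The upstream sequence of 6 of the 9 genes was taken from the RefSeq promoter table (GRCm38.p6), with 8 start sites in all, several of them of Sall1. No entry was found for Tmem119 or Gpr34, and Csf1r was left out of the search. The 150 bases upstream of each start were searched on both strands for AGGAAG, a core to which PU.1 is known to bind. These letters were chosen after the sequences had been seen, so their share is a description and not a test of enrichment. They stood in 3 of the 8 member windows and in 19.7% of the 32851 windows of the same length in the table. The 3 windows with the core and, for comparison, the window of Cx3cr1, which lacks it, are printed 5′ to 3′ with the core or its reverse complement, CTTCCT, in capitals. All 4 genes lie on the minus strand.
P2ry12, chr3:59262986-59263135: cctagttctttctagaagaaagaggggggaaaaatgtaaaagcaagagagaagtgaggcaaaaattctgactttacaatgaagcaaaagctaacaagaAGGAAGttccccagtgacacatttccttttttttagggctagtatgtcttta
P2ry13, chr3:59210883-59211032: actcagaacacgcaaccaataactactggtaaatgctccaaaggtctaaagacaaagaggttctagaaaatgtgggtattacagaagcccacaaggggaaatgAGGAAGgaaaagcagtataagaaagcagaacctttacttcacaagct
Fcrls, chr3:87263525-87263674: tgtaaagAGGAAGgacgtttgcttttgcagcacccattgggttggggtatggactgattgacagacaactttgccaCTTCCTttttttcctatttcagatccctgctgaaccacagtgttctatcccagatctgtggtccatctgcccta
Cx3cr1, chr9:120068297-120068446: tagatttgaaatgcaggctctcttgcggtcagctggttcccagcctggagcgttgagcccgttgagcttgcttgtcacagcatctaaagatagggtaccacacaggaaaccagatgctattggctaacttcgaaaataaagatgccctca

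The first question was how the members differed between injured and sham mice within each region and time point. In the hippocampus at 3 dpi all 9 were higher after TBI, by 1.53-fold (P2ry13) to 5.77-fold (Fcrls) in TBI + VH against Sham + VH. All 9 passed the test there (edgeR quasi-likelihood test, adjusted p under 0.05 and absolute log2 fold change above 0.32), against 8.99% of 16756 genes called higher. All 9 also passed in TBI + CD against Sham + VH, where 10.3% of genes were called higher. None was lower after TBI in any comparison that passed the test. In bulk tissue, more cells of a type and more RNA per cell cannot be told apart.

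**Figure D1:**
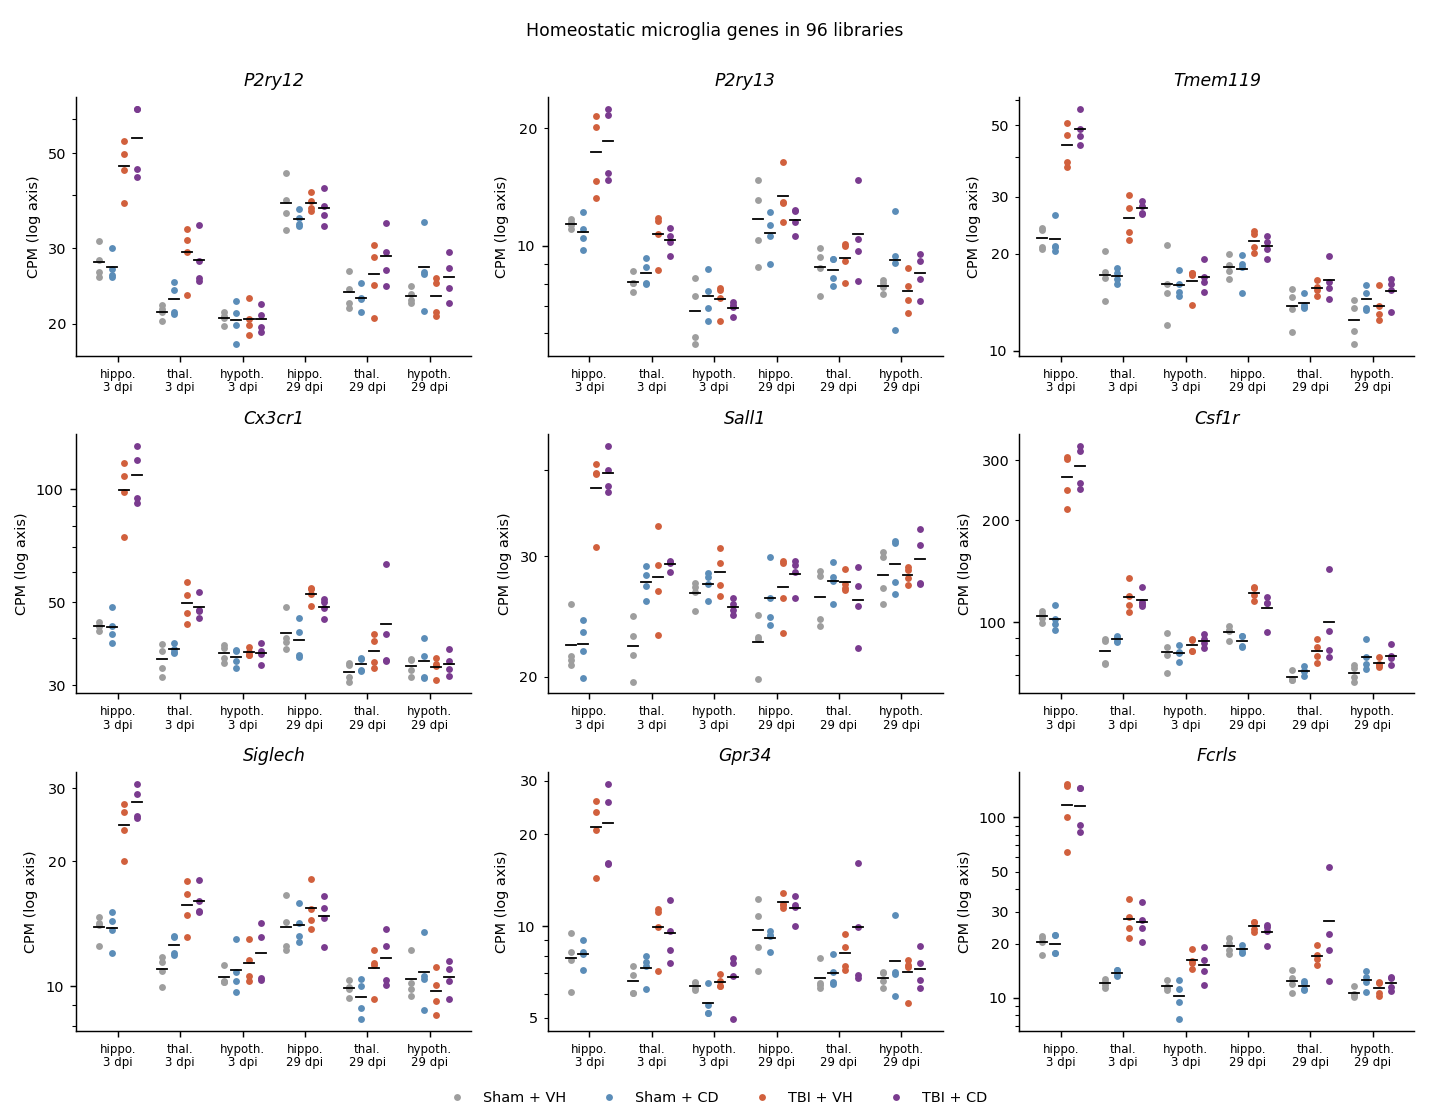
Levels of the 9 homeostatic microglia genes in 96 libraries. Each point is 1 library (y axis: CPM, log scale), each bar the mean of 4, and the x axis gives region and time point, with groups by colour. In the hippocampus at 3 dpi every TBI library lies above every sham library for all 9 genes, as it did for 8.15% of the genes tested.

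Csf1r (chr18:61100598-61132149, plus strand, GRCm38) encodes the colony stimulating factor 1 receptor, on which microglial survival depends. In the hippocampus at 3 dpi it read 103, 99.6, 106 and 108 CPM in the Sham + VH libraries and 302, 216, 307 and 245 CPM in the TBI + VH libraries. Every injured library lay far above every sham library, and the log2 fold change was 1.36 ± 0.11 (SE; adjusted p = 3.01e-07). Cx3cr1 (chr9:119901616-120069879, minus strand) encodes the receptor for the neuronal chemokine fractalkine. It read 44.3, 41.7, 43.2 and 43.0 CPM in Sham + VH and 108.5, 74.65, 117 and 98.6 CPM in TBI + VH. The sham libraries stood close together, the injured ones spread, and no value was shared (log2 fold change 1.21 ± 0.13, adjusted p = 3.29e-06).

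The purinergic receptors P2ry12 and P2ry13 had, with Sall1, the lowest log2 fold changes in TBI + VH against Sham + VH, within each other's errors. P2ry12 (chr3:59216272-59262871, minus strand) encodes the ADP receptor that directs microglial processes towards injury. It read 31.2, 26.45, 28.2 and 25.7 CPM in Sham + VH and 53.25, 38.4, 49.8 and 45.65 CPM in TBI + VH. The ranges were separate, with a log2 fold change of 0.75 ± 0.12 (adjusted p = 0.000327). P2ry13 (chr3:59207892-59210882, minus strand), a neighbouring ADP receptor gene, read 11.5, 11.3, 11.03 and 11.7 CPM in Sham + VH and 21.4, 13.3, 20.2 and 14.6 CPM in TBI + VH. Its injured libraries fell into a higher and a lower pair, all above sham (0.61 ± 0.15, adjusted p = 0.0113). When choroid plexus level was a covariate, P2ry12 gave 0.57 (adjusted p = 0.0836) and P2ry13 gave 0.39 (adjusted p = 0.446), so neither passed, while the other 7 did, Gpr34 with 1.10 (adjusted p = 0.0411) in place of 1.43. In TBI + CD against Sham + VH with this covariate only P2ry13 failed to pass (0.53, adjusted p = 0.118, in place of 0.70, adjusted p = 0.00365). P2ry13 also missed the threshold without TBI + VH replicate 1 (0.50, adjusted p = 0.05005).

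Gpr34 (chrX:13632089-13640858, plus strand) encodes a receptor for lysophosphatidylserine. It was the lowest of the members in raw counts and read 9.46, 6.07, 8.20 and 7.72 CPM in Sham + VH and 25.7, 14.35, 23.6 and 20.7 CPM in TBI + VH. Every injured library lay above every sham library (1.43 ± 0.20, adjusted p = 9.42e-05).

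Among the surface proteins, Fcrls (chr3:87250758-87263738, minus strand), an Fc receptor-like protein found in mouse microglia, showed the largest difference of the 9 in this comparison. It read 21.4, 20.5, 17.3 and 22.0 CPM in Sham + VH and 149, 64.7, 154 and 101 CPM in TBI + VH. The injured libraries differed from each other by more than the whole sham range and still did not reach it (2.53 ± 0.24, adjusted p = 1.39e-06). Tmem119 (chr5:113793729-113800516, minus strand), a transmembrane protein used as a microglial marker, read 21.03, 20.7, 23.7 and 24.0 CPM in Sham + VH and 51.0, 38.4, 46.7 and 37.2 CPM in TBI + VH. The 2 groups did not overlap (0.96 ± 0.11, adjusted p = 1.00e-05). Siglech (chr7:55768178-55778925, plus strand), a sialic acid-binding lectin, read 14.7, 12.5, 14.2 and 14.1 CPM in Sham + VH and 27.6, 20.04, 26.3 and 23.8 CPM in TBI + VH (0.82 ± 0.10, adjusted p = 1.77e-05). Its groups were separate as well.

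Sall1 (chr8:89027235-89044162, minus strand) encodes the transcription factor that holds microglial identity. It read 20.8, 21.4, 25.6 and 21.1 CPM in Sham + VH and 39.5, 31.0, 40.8 and 39.7 CPM in TBI + VH. TBI + VH replicate 2 stood apart below the other injured libraries, as it was lowest for 8 of the 9 genes, but above all shams (0.77 ± 0.09, adjusted p = 1.47e-05). Some gene models overlap others on the opposite strand: exons of P2ry12 overlap Med12l, which also spans P2ry13, exons of Csf1r overlap Hmgxb3, and Gpr34 lies inside Cask. The annotated span of Cx3cr1 covers further genes without sharing exons with those in the tables. In TBI + VH against Sham + VH the log2 fold changes of Med12l, Hmgxb3 and Cask were -0.15 ± 0.08, -0.07 ± 0.06 and 0.03 ± 0.05 (adjusted p = 0.267, 0.565 and 0.794), so none of the 3 passed the test.

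With drug arms averaged, so that 8 injured were set against 8 sham libraries, all 9 members passed in the hippocampus at 3 dpi, where 13.3% of genes were called higher. The log2 fold changes ran from 0.69 ± 0.11 (P2ry13) to 2.54 ± 0.17 (Fcrls), with a median of 1.04 over the members and -0.02 over all genes. All 9 still passed with choroid plexus level as a covariate, P2ry13 with the highest adjusted p (0.60, edgeR adjusted p = 0.00181). The share of all genes called in fits with this covariate is not given here. No member had overlapping sham and TBI ranges in either drug arm, and 9.19% of the genes tested lay above sham in this way in both arms. In the candesartan arm, where the sham libraries read 39.8 to 89.2 CPM of choroid plexus genes, P2ry12 read 25.95, 25.7, 26.8 and 30.0 CPM in Sham + CD and 46.0, 44.1, 63.5 and 63.5 CPM in TBI + CD. The choroid plexus sum of TBI + CD replicate 1 was 2533 CPM and that of the other TBI + CD libraries at most 141 CPM.

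Markers of other cells moved in the same libraries. The summed level of 13 genes of infiltrating and border macrophages ranged, for Sham + VH, from 12.2 to 20.4 CPM and, for TBI + VH, from 41.5 to 149.6 CPM. For Sham + CD the range was 11.05 to 15.4 CPM and for TBI + CD 65.4 to 161 CPM, and none of the 13 was at 0 throughout a group. The sum of 6 genes of dividing cells ran from 5.19 to 7.09 CPM (Sham + VH) and from 18.2 to 91.1 CPM (TBI + VH). The part of such cells in the members' levels was not tested.

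The members did not rise by equal amounts, and this was tested within libraries by setting each member against Csf1r, which needs no library scaling (exact permutation test, 4900 relabelings of injury within drug arms, 2-sided, p adjusted over 48 tests). In the hippocampus at 3 dpi the log2 ratio to Csf1r was lower after TBI for P2ry13 by 0.76, for Sall1 by 0.62, for P2ry12 by 0.56, for Siglech by 0.51 and for Tmem119 by 0.38. For each of these 5 the exact permutation p was 0.000408, the smallest that the relabelings can give (adjusted p = 0.00218). The P2ry12 ratio was -1.91 ± 0.15 in 8 sham and -2.47 ± 0.09 in 8 TBI libraries (mean ± SD), with no overlap. Cx3cr1 was lower relative to Csf1r by 0.16 (exact permutation adjusted p = 0.00784), and Gpr34 gave -0.04 (adjusted p = 0.798). Fcrls alone of the 8 was higher relative to Csf1r there, by 1.05 (adjusted p = 0.00218).

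**Figure D2:**
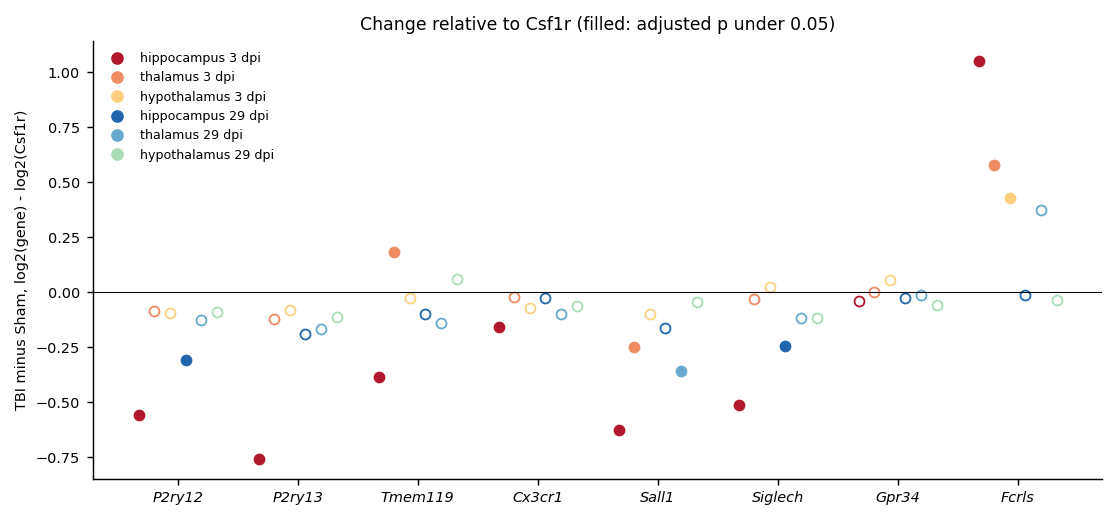
Change of each member relative to Csf1r after TBI. The y axis is the mean TBI minus sham difference, over both drug arms, of log2(gene) minus log2(Csf1r) in 16 libraries per region and time point, and filled points have an adjusted exact permutation p under 0.05. Fcrls lies at 1.05 and P2ry13 at -0.76 in the hippocampus at 3 dpi.

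In the other region and time sets 7 further ratios passed. At 3 dpi in the thalamus the Fcrls ratio was higher by 0.58 (exact permutation adjusted p = 0.00218), the Tmem119 ratio was higher by 0.18 (0.05 in the vehicle and 0.31 in the candesartan arm, adjusted p = 0.0476) and the Sall1 ratio gave -0.25 (adjusted p = 0.00218). In the hypothalamus at 3 dpi the Fcrls ratio was higher by 0.43 (adjusted p = 0.0105). At 29 dpi the hippocampus gave -0.31 for P2ry12 (adjusted p = 0.00218) and -0.24 for Siglech (adjusted p = 0.0105), and the thalamus gave -0.36 for Sall1 (-0.18 in the vehicle and -0.53 in the candesartan arm, adjusted p = 0.00890). Whether the arms differed in these 2 ratios was not tested. In all, 14 of 48 ratios passed.

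Per kilobase of exon, a scale on which genes can be set beside each other, Csf1r was the highest member in the hippocampus of Sham + VH mice at 3 dpi (18.04 ± 0.63 CPM per kb, SD, n = 4). P2ry12 (10.95 ± 0.96), Tmem119 (9.65 ± 0.75) and Cx3cr1 (9.56 ± 0.23) followed, then Fcrls (8.69 ± 0.89). The spread of Tmem119 overlapped those of the other 3, while those of P2ry12 and Cx3cr1 lay apart. P2ry13, Sall1, Siglech and Gpr34 lay between 3.76 and 4.50 CPM per kb. In TBI + VH libraries Fcrls (50.1 ± 18.1 CPM per kb) and Csf1r (46.4 ± 7.72) were highest and within each other's spread. Fcrls moved from the fifth to the highest mean, and P2ry12 (18.4 ± 2.52) from the second to the fifth, within the spread of Tmem119 (18.7 ± 2.87) and Cx3cr1 (22.15 ± 4.09).

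The thalamus, which lies deeper below the impact, gave smaller differences at 3 dpi. In TBI + VH against Sham + VH 5 members passed, Tmem119, Cx3cr1, Csf1r, Siglech and Fcrls, against 0.298% of 16762 genes called higher. The same 5 passed in TBI + CD against Sham + VH, where 0.418% were called. All 9 had an unadjusted p under 0.05 in both comparisons, as had 643 and 1197 of all genes tested, and DESeq2 called 7 in each, of 91 and 128 genes called in all. Fcrls read 12.7, 11.8, 12.3 and 11.3 CPM in Sham + VH and 35.5, 28.2, 24.3 and 21.4 CPM in TBI + VH. Its injured libraries lay well above the shams (1.18 ± 0.15, adjusted p = 0.00212). Tmem119 read 20.35, 17.5, 16.9 and 14.2 CPM in Sham + VH and 30.4, 27.6, 22.03 and 23.4 CPM in TBI + VH, again without overlap (0.58 ± 0.10, adjusted p = 0.0209). P2ry12 read 21.3, 21.6, 20.3 and 22.2 CPM in Sham + VH and 33.3, 31.3, 29.5 and 23.35 CPM in TBI + VH. TBI + VH replicate 4 came close to the shams, and the log2 fold change of 0.46 ± 0.11 did not pass (adjusted p = 0.112). Without that library all 9 members passed, where 0.466% of genes were called higher. Without any of Sham + VH replicates 2, 3 and 4 or TBI + VH replicates 1 and 2 only Cx3cr1, Csf1r and Fcrls did, where 0.142% to 0.183% were. In TBI + CD against Sham + VH Cx3cr1 and Siglech fell below the threshold on omission of replicate 3 of either group or of replicate 4 of Sham + VH, which left 3 members, with 0.183% of genes called higher in each fit. Cx3cr1 and Siglech also fell below the threshold when only those groups were fitted. In TBI + VH against Sham + VH fitted on only its groups Fcrls passed alone (adjusted p = 0.0382), and Tmem119, Cx3cr1, Csf1r and Siglech had adjusted p-values of at least 0.111. The share of all genes called in the fits on only the groups compared is not given here.

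With drug arms averaged in the thalamus at 3 dpi, 8 of 9 members passed, and 0.907% of genes were called higher. Fcrls changed most (1.06 ± 0.105), followed by Tmem119 (0.64 ± 0.07, adjusted p = 0.000177), Gpr34 (0.48 ± 0.11, adjusted p = 0.0492) and Csf1r (0.46 ± 0.05). The call of Gpr34 was lost in 14 of 16 fits that each omitted 1 library, and was kept only without TBI + VH replicate 4 or TBI + CD replicate 4. That of P2ry13 was lost in 4 of them, without TBI + VH replicate 2, Sham + CD replicates 2 or 3, or TBI + CD replicate 3. With choroid plexus level as a covariate P2ry12 (0.36, adjusted p = 0.0652, in place of 0.38, adjusted p = 0.0176) and Gpr34 (0.51, adjusted p = 0.0877) did not pass, and in TBI + VH against Sham + VH Siglech did not (0.53, adjusted p = 0.0781, in place of 0.51, adjusted p = 0.0293). Sall1 did not pass with drug arms averaged (0.21 ± 0.06, adjusted p = 0.226), and the Sham + CD libraries, at 25.8 to 29.0 CPM, lay above the Sham + VH libraries, at 19.7 to 24.5 CPM, for this gene. The macrophage sum there ran from 12.7 to 18.1 CPM (Sham + VH) and from 16.6 to 25.7 CPM (TBI + VH). Of its tested genes only Lyz2 passed in the averaged fit (0.71 ± 0.13, edgeR adjusted p = 0.0104). F13a1, Mrc1 and Cbr2 gave 0.24, 0.07 and 0.29 without passing. The sum of dividing-cell genes ran from 2.64 to 3.67 CPM (Sham + VH) and from 6.66 to 11.4 CPM (TBI + VH), and 4 of its 5 tested genes rose in the averaged fit, among them Mki67 by 2.16 ± 0.22 and Top2a by 2.48 ± 0.25. Gfap, the intermediate filament of reactive astrocytes, rose by 1.56 ± 0.22 and alone of 4 astrocyte genes passed. Aldh1l1 (0.25 ± 0.05, edgeR adjusted p = 0.0221) met the adjusted p but not the minimum fold change. The choroid plexus sum was 1098 and 3347 CPM in Sham + VH replicates 1 and 3 and at most 61.6 CPM in TBI + VH. The part of macrophages, dividing cells and astrocytes in the members' differences was not tested.

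In the hypothalamus at 3 dpi no member passed in TBI + VH or in TBI + CD against Sham + VH, where edgeR called 0% of 16946 genes higher in each. The unadjusted p was under 0.05 for 1 member in each comparison, and for 577 and 653 genes in all, and DESeq2 called no member in either. With drug arms averaged 0.0177% of genes and none of the 9 members were called by edgeR, 1 member of 1242 genes in all had an unadjusted p under 0.05, and DESeq2 called 1 member of 16 genes in all. That member, Fcrls, read 11.5, 11.03, 11.4 and 12.6 CPM in Sham + VH and 16.02, 14.4, 18.6 and 15.7 CPM in TBI + VH. These 2 groups did not overlap, while Sham + CD (7.62 to 12.5 CPM) and TBI + CD (11.75 to 19.1 CPM) did. The averaged log2 fold change was 0.53 with a 95% interval of 0.305 to 0.75 (adjusted p = 0.156). For P2ry12 the averaged value was 0.00, with an interval of -0.11 to 0.12.

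At 29 dpi the differences in the hippocampus were small. In TBI + VH against Sham + VH only Csf1r passed, against 0.523% of 16832 genes called higher, with 6 members of 1343 genes in all at an unadjusted p under 0.05 and 3 of 140 called by DESeq2. Csf1r read 88.3, 94.05, 97.55 and 94.7 CPM in Sham + VH and 120.2, 116, 127 and 126 CPM in TBI + VH. All injured libraries lay above all shams (0.39 ± 0.06, adjusted p = 0.00582). In TBI + CD against Sham + VH edgeR called none (0.113% of genes called higher), with 5 of 1245 at an unadjusted p under 0.05 and 0 of 52 called by DESeq2. P2ry12 read 33.2, 36.2, 45.03 and 38.8 CPM in Sham + VH and 37.3, 36.6, 40.7 and 38.6 CPM in TBI + VH, so the groups lay over each other.

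With drug arms averaged at 29 dpi in the hippocampus Csf1r (0.36 ± 0.05, adjusted p = 0.000245) and Fcrls (0.36 ± 0.06, adjusted p = 0.00358) passed, where 1.59% of genes were called higher. Cx3cr1 (0.31 ± 0.06, adjusted p = 0.0105) and Tmem119 (0.26 ± 0.06, adjusted p = 0.0410) met the adjusted p but not the minimum fold change. P2ry12 gave 0.04, with a 95% interval of -0.09 to 0.16. Without Sham + VH replicate 3, which was the highest sham library for P2ry12 and Cx3cr1, 4 members passed, where 1.21% of genes were called higher.

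In the thalamus at 29 dpi edgeR called 0% of 16957 genes higher in TBI + VH, in TBI + CD and with drug arms averaged, and so no member. DESeq2 called 0, 1 and 0 members, of 0, 22 and 17 genes in all, and 0, 7 and 7 members had an unadjusted p under 0.05, of 419, 815 and 1145 genes in all. TBI + CD replicate 4 stood above the rest there. Fcrls read 12.4, 18.5, 22.7 and 53.4 CPM in TBI + CD and 11.9, 10.7, 14.2 and 12.8 CPM in Sham + VH. Csf1r read 79.2, 83.1, 94.2 and 144 CPM in TBI + CD and 68.04, 72.5, 67.8 and 67.5 CPM in Sham + VH. Without that library the log2 fold change of Fcrls in this comparison was 0.53 ± 0.15 in place of 1.10 ± 0.30, and neither passed. The members with an unadjusted p under 0.05 were then 3 in TBI + CD against Sham + VH, of 774 genes in all, and 7 with drug arms averaged, of 1333. The same library held the highest macrophage sum, 62.3 CPM, while Sham + VH ran from 14.3 to 22.0 CPM, and the part of macrophages in the result was not tested. Its choroid plexus sum of 1401 CPM lay within the Sham + VH range of 31.0 to 3728 CPM. In the hypothalamus at 29 dpi no member passed in TBI + VH (0.00583% of 17165 genes called higher), in TBI + CD (0%) or with drug arms averaged (0.00583%). In the same order 0, 2 and 0 members had an unadjusted p under 0.05, of 479, 662 and 505 genes in all, and DESeq2 called 0 members in each.

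**Figure D3:**
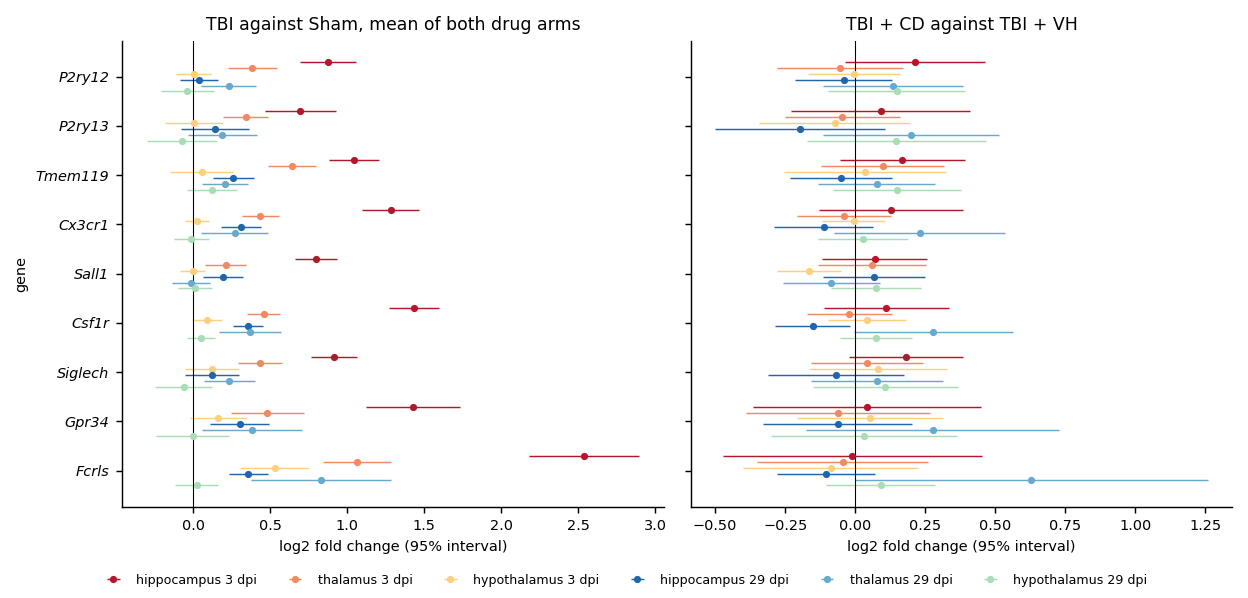
Log2 fold changes of the 9 members (x axis) with 95% intervals, by gene (y axis) and by region and time point (colour). The left panel gives TBI against sham averaged over drug arms (8 against 8 libraries), and the right panel TBI + CD against TBI + VH (4 against 4). In the left panel the hippocampus at 3 dpi lies farthest right for all 9 genes, from 0.69 to 2.54, and in the right panel no member passed the test.

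A further question was whether candesartan changed these genes. No member was called by edgeR or by DESeq2 in Sham + CD against Sham + VH or in TBI + CD against TBI + VH, in any region or at either time point. Over all genes, Sham + CD against Sham + VH gave 1.5% called in either direction in the hippocampus at 3 dpi and 0% in the other 5 sets, and TBI + CD against TBI + VH gave 0% in all 6 sets. The unadjusted p was under 0.05 for 0, 1 and 0 members in Sham + CD at 3 dpi in the hippocampus, thalamus and hypothalamus, and for 0, 0 and 2 at 29 dpi. Over all genes it was under 0.05 for 2511 of 16756, 1152 of 16762 and 361 of 16946 at 3 dpi, and for 810 of 16832, 540 of 16957 and 2269 of 17165 at 29 dpi. For TBI + CD against TBI + VH the members numbered 0, 0 and 1, then 1, 0 and 0, and all genes 732, 344 and 353, then 893, 380 and 526. With choroid plexus level as a covariate in the hippocampus at 3 dpi, P2ry12 (0.25, unadjusted p = 0.0475) and Siglech (0.21, unadjusted p = 0.0489) came under 0.05 in TBI + CD against TBI + VH, each with an edgeR adjusted p of 1. The interaction of injury and candesartan in the hippocampus called no member at 3 or 29 dpi by either tool, with no unadjusted p under 0.05 among them and 0% of genes called by edgeR at both times. Over all genes DESeq2 called 325 at 3 dpi and 2 at 29 dpi, and 2196 and 890 had an unadjusted p under 0.05 by edgeR.

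A missed threshold does not show that candesartan left the members alike. In the hippocampus at 3 dpi the log2 fold changes of the 9 in TBI + CD against TBI + VH ran from -0.01 to 0.21, and their 95% intervals together spanned -0.47 to 0.46. P2ry12 gave 0.21, from 38.4 to 53.25 CPM in TBI + VH and from 44.1 to 63.5 CPM in TBI + CD, so the groups overlapped. Intervals spanned -0.39 to 0.32 in the thalamus and -0.40 to 0.33 in the hypothalamus at 3 dpi. At 29 dpi they spanned -0.50 to 0.25 in the hippocampus, -0.30 to 0.47 in the hypothalamus and -0.26 to 1.26 in the thalamus, where Fcrls in TBI + CD replicate 4 gave the upper end.

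The members also differed between regions in mice without injury or drug. In Sham + VH libraries at 3 dpi 7 of 9 members were called higher in the hippocampus than in the thalamus, against 19.4% of 17788 genes, and 8 were called higher than in the hypothalamus, against 23.2%. At 29 dpi 8 were called higher in each (19.9% and 22.2% of 17935 genes). Between the thalamus and the hypothalamus 1 member, P2ry13, was called higher in the thalamus at 3 dpi (14.7% of genes) and none by edgeR or DESeq2 at 29 dpi (15.6% of genes), with 1 of 9516 genes in all at an unadjusted p under 0.05.

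Fcrls in Sham + VH at 3 dpi, on the scale shared by the regions, read 22.8, 21.8, 18.5 and 23.35 CPM in the hippocampus, 12.8, 11.97, 12.4 and 11.4 CPM in the thalamus and 10.8, 10.4, 10.6 and 11.7 CPM in the hypothalamus. The hippocampus stood apart, and the ranges of the other two regions overlapped. P2ry12 read 33.2, 28.2, 30.2 and 27.3 CPM in the hippocampus, 21.6, 21.9, 20.5 and 22.4 CPM in the thalamus and 19.6, 20.05, 18.3 and 19.1 CPM in the hypothalamus. Its order was hippocampus, thalamus, hypothalamus, with no value shared. Sall1 read 23.7 ± 2.48, 22.4 ± 2.10 and 24.8 ± 1.19 CPM in the 3 regions (mean ± SD, n = 4), with overlapping ranges, and was the member that passed in no comparison between regions at either time. The choroid plexus sum of these Sham + VH libraries at 3 dpi was 170.6 to 6419 CPM in the hippocampus, 30.5 to 3347 CPM in the thalamus and 24.6 to 47.8 CPM in the hypothalamus, and at 29 dpi 60.3 to 7042, 31.0 to 3728 and 31.8 to 38.3 CPM. Hippocampus replicate 3 at 3 dpi, at 170.6 CPM, read above every thalamic and hypothalamic Sham + VH library for Fcrls and P2ry12, but this is 1 library. No fit between regions held choroid plexus level as a covariate, and its part in the differences between regions was not tested. The call of Gpr34 between hippocampus and hypothalamus at 3 dpi was lost without hippocampus replicate 1. The call of P2ry13 between thalamus and hypothalamus at 3 dpi was lost without thalamus replicate 1 or without hypothalamus replicate 1 or 3. At 29 dpi Cx3cr1, Gpr34 and P2ry13 lost their calls between hippocampus and thalamus without hippocampus replicate 3.

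**Figure D4:**
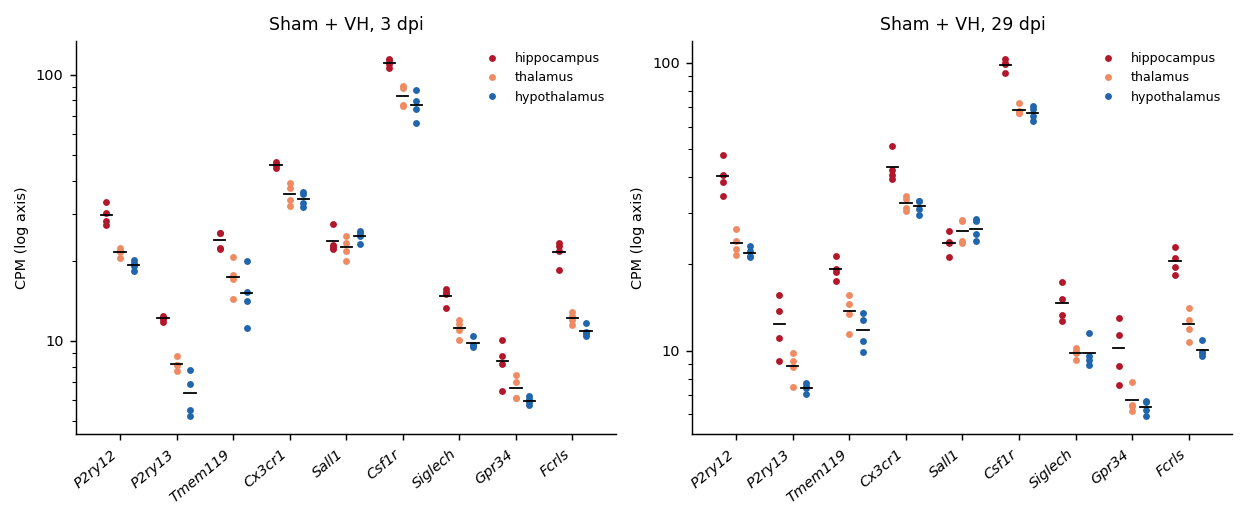
Levels of the 9 members in Sham + VH libraries by region at 3 dpi (left) and 29 dpi (right), on a log axis of CPM scaled over the 48 libraries of a time point. Points are single libraries and bars means of 4. Sall1 reads about the same in the 3 regions (22.4 to 24.8 CPM at 3 dpi), while P2ry12 and Fcrls are higher in the hippocampus.

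The injury effect itself was compared between regions and times. At 3 dpi it was larger in the hippocampus than in the thalamus for 8 of 9 members (8.59% of genes called higher), from 0.37 ± 0.12 for Tmem119 to 1.44 ± 0.19 for Fcrls on the log2 scale. P2ry13 did not pass (0.32 ± 0.13, adjusted p = 0.0824). Against the hypothalamus it was larger for all 9 (9.51% of genes), from 0.67 ± 0.13 for P2ry13 to 1.99 ± 0.20 for Fcrls. At 29 dpi edgeR and DESeq2 called no member in either comparison of regions (0.0669% and 0.162% of genes called higher by edgeR), and 2 and 3 members had an unadjusted p under 0.05, of 1034 and 991 genes in all.

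In the hippocampus the effect at 3 dpi was larger than that at 29 dpi for all 9 members (7.92% of 17181 genes), by 0.57 ± 0.16 for P2ry13 to 2.18 ± 0.19 for Fcrls. In the thalamus (0.0175% of genes) and the hypothalamus (0.00576% of genes) no member was called by edgeR or DESeq2, and 2 and 1 had an unadjusted p under 0.05, of 473 and 472 genes in all. In the thalamus Tmem119 gave 0.43 ± 0.10 and Fcrls 0.23 ± 0.25 (adjusted p = 0.4074 and 0.9999).

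The rest of the microglial pathway was taken from lists that, like the members, had been chosen with results of these data known. Of 12 further microglia-enriched genes 11 rose in TBI + VH against Sham + VH in the hippocampus at 3 dpi, where 8.99% of genes were called higher, with a median log2 fold change of 0.82 where the members' was 0.96 and that of all genes -0.01. Olfml3, a secreted glycoprotein, rose by 1.99 ± 0.16, Selplg, the P-selectin ligand, by 0.77 ± 0.07 and Rgs10, a regulator of G protein signalling, by 0.87 ± 0.09. All 12 genes shared by microglia and macrophages rose, with a median of 2.13. Of these the complement genes C1qa, C1qb and C1qc rose by 2.19 to 2.24 and the protease gene Ctss by 1.74 ± 0.14. In the thalamus 11 of those 12 and 3 of the 12 microglia-enriched genes rose in the same comparison, where 0.298% of genes were called higher.

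Of 14 measured ligands, receptors and transcription factors of microglial maintenance 10 rose in that comparison in the hippocampus, with a median of 0.72. Csf1, a ligand of the receptor encoded by Csf1r, rose by 0.82 ± 0.11. Cx3cl1, the ligand of the Cx3cr1 product, gave -0.10 ± 0.09 (adjusted p = 0.501), and its level of 615 ± 34.5 CPM in Sham + VH was 572 ± 47.1 CPM in TBI + VH. Smad3, a transducer of transforming growth factor beta, and Mef2c, a transcription factor also found in neurons, gave -0.09 ± 0.08 and 0.00 ± 0.11 (adjusted p = 0.574 and 0.989). Chosen after their values were seen, Spi1, which encodes PU.1, rose by 1.997 and Tgfb1 by 1.39, while Il34, the other ligand of the Csf1r product, gave -0.11.

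Of 7 measured purinergic receptors other than P2ry12 and P2ry13, 5 rose. P2ry6, the UDP receptor, which also stands in the list of further microglia-enriched genes, rose by 1.87 ± 0.19, and the ATP-gated channels P2rx7 and P2rx4 rose by 0.71 ± 0.10 and 0.51 ± 0.10. P2ry1, an ADP receptor found in other cells as well, gave 0.41 ± 0.22 (adjusted p = 0.272). Of 14 disease-associated microglia genes 11 rose, with a median of 2.02. Among the most abundant of these, Ctsd, a lysosomal protease, rose by 1.61 ± 0.19, Cd9, a tetraspanin, by 1.40 ± 0.14 and Axl, a receptor tyrosine kinase, by 0.71 ± 0.09, while Apoe, the lipid carrier also made by astrocytes, gave 0.31 ± 0.06, under the minimum fold change.

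Across the 96 libraries, with the mean of each region and time point taken off, genes whose log2 CPM was among the most like the mean of the members were Ly86 (Pearson r = 0.97), C1qc (0.96), Nckap1l (0.96) and Mpeg1 (0.96). Among those most like P2ry12 were Itgam (0.87), Cd33 (0.86), Nckap1l (0.86) and Hpgds (0.85), and among those most like Csf1r were C1qc, Mpeg1, C1qb and C1qa (each 0.97). These libraries share the difference between injured and sham, so the values are a description. Among the members the highest r was 0.97 (Cx3cr1 with Csf1r) and the lowest 0.55 (P2ry13 with Sall1). Within the 48 sham libraries P2ry12 with Gpr34 gave 0.78 and Cx3cr1 with Csf1r 0.72, while P2ry12 with Sall1 gave -0.26 and P2ry12 with Tmem119 -0.05. P2ry13 with Sall1 gave -0.17, so the lowest values among sham libraries were those of Sall1 with the ADP receptors.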

How the data were processed

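Total RNA from 96 dissected regions was made into stranded mRNA libraries and sequenced as paired reads of 75 bases. The authors aligned reads to mm10 with MapSplice 2.2.1 and counted them per gene with HTSeq 0.9.1, and deposited whole-number counts in a table for each time point. The annotation and the strand setting of the counting are not given in the sources used here. If strand was ignored, reads of overlapping opposite genes cannot be told apart.

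Counts were fitted with edgeR 4.0.16 (filterByExpr, TMM, quasi-likelihood F test) in R 4.3.3, 16 libraries per region and time point in 4 groups of 4, 48 per time point between regions, or 32 of a region between times. P-values were adjusted by Benjamini-Hochberg over all genes tested. A gene was called at adjusted p under 0.05 and absolute log2 fold change above 0.32, the thresholds of the study. CPM used TMM library sizes within the same fit (prior count 2 for log values). DESeq2 1.42.0, RLE factors, no filter, adjusted p alone, only the groups compared, a replicate block, a choroid plexus covariate and omission of each library were alternatives. A block of arm and number over regions, and the covariate in the thalamus at 3 dpi, were added after seeing the data. On counts simulated from Sham + VH levels in the hippocampus at 3 dpi, 198 of 16456 genes were changed in TBI + VH. Of the 198, 152 were found, with 7 false calls. The real comparison called 1796 genes, so these rates need not hold for it. No 2 libraries of a group were alike within sampling noise. Exon lengths and positions are from GENCODE vM21 (GRCm38). Members, lists and tests were chosen with earlier results of these data known. The lists were further microglia-enriched genes, microglia and macrophage genes, maintenance genes, disease-associated microglia genes, infiltrating and border macrophages, purinergic receptors, and markers of dividing cells, neutrophils, T cells, neurons, astrocytes, oligodendrocytes, endothelium and choroid plexus. Named were all members, the 4 most abundant genes of each list and the 5 genes most correlated with the members' mean, P2ry12 and Csf1r. Some genes that this rule names are not reported here. Med12l, Hmgxb3 and Cask were named because they overlap members. Any other gene is marked as chosen after its values were seen.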

Additional observations from a re-analysis of the deposited data

Results flagged for a closer look

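In 8 of 216 groups of 4 libraries 1 library lay far from the other 3 for its range, and chance flags about 1 in 20 groups. High values were Tmem119 in hippocampus Sham + CD replicate 1 at 3 dpi (26.4 CPM), Sall1 in hippocampus Sham + VH replicate 3 at 3 dpi (25.6 CPM), Siglech in hypothalamus Sham + VH replicate 3 at 3 dpi (11.3 CPM), Csf1r in thalamus Sham + VH replicate 2 at 29 dpi (72.5 CPM) and Gpr34 in thalamus Sham + VH replicate 4 at 29 dpi (7.85 CPM). Low values were Sall1 in hippocampus TBI + VH replicate 2 (31.0 CPM), Tmem119 in hypothalamus TBI + VH replicate 2 (13.8 CPM) and Sall1 in thalamus TBI + CD replicate 3 (28.4 CPM), all at 3 dpi.

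The injury effect differed between regions or times in 26 member tests, all with the larger effect in the hippocampus at 3 dpi (edgeR quasi-likelihood test). Hippocampus minus thalamus at 3 dpi gave log2 differences of 0.46 for P2ry12, 0.37 for Tmem119, 0.81 for Cx3cr1, 0.56 for Sall1, 0.94 for Csf1r, 0.45 for Siglech, 0.91 for Gpr34 and 1.44 for Fcrls. Hippocampus minus hypothalamus at 3 dpi gave 0.85 for P2ry12, 0.67 for P2ry13, 0.97 for Tmem119, 1.24 for Cx3cr1, 0.78 for Sall1, 1.32 for Csf1r, 0.77 for Siglech, 1.24 for Gpr34 and 1.99 for Fcrls. In the hippocampus, 3 dpi minus 29 dpi gave 0.85 for P2ry12, 0.57 for P2ry13, 0.79 for Tmem119, 0.98 for Cx3cr1, 0.62 for Sall1, 1.09 for Csf1r, 0.80 for Siglech, 1.14 for Gpr34 and 2.18 for Fcrls.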

How the results depend on the processing

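Of 106 member results that passed the test, recomputed in 1342 alternative fits, 1288 stayed past the threshold, 54 did not and 0 reversed. Fitting only the groups compared left 1 in place of 5 members in TBI + VH and 3 in place of 5 in TBI + CD against Sham + VH in the thalamus at 3 dpi. Fewer libraries enter those fits, and the share of all genes called in them is not given here. At 29 dpi DESeq2 called 3 in place of 1 for hippocampal TBI + VH and 1 in place of 0 for thalamic TBI + CD, and it called 1 in place of 0 for the averaged injury in the hypothalamus at 3 dpi. In the same order DESeq2 called 140, 22 and 16 of all genes and edgeR called 89, 0 and 3. Adjusted p alone added Cx3cr1 and Tmem119 to the members called for the averaged injury in the hippocampus at 29 dpi. The share of all genes under that threshold is not given here. The cause of these changes was not tested.

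When each library was omitted in turn, the members called numbered 3 to 9 for TBI + VH and 3 to 5 for TBI + CD in the thalamus at 3 dpi (for the latter 3 on omission of replicate 3 of either group or replicate 4 of Sham + VH). The number was 8 to 9 for TBI + VH in the hippocampus at 3 dpi, 6 to 8 for the averaged injury in the thalamus at 3 dpi, where Gpr34 fell below the threshold in 14 and P2ry13 in 4 of 16 fits, 1 to 2 for TBI + VH and 2 to 4 for the averaged injury in the hippocampus at 29 dpi (both highest without Sham + VH replicate 3). Between regions it was 7 to 8 for hippocampus against hypothalamus and against thalamus at 3 dpi, 5 to 8 for hippocampus against thalamus at 29 dpi, 0 to 1 for thalamus against hypothalamus at 3 dpi and 0 to 1 at 29 dpi (1 without thalamus replicate 1 or hypothalamus replicate 2). The share of all genes called is given above for only some of these fits, so the counts describe only how stable the member calls were.

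Within a region equal replicate numbers were not taken as pairs, since in no set was every same-numbered pair correlated over 0.1: the mean r ran from 0.00 to 0.14 over the 6 sets, 4 to 15 of 24 pairs were over 0.1 and 2 to 10 of 16 libraries were most like their own number, the most of both in the thalamus at 3 dpi (mean r 0.14, other numbers -0.05). With a replicate block the counts were 9 for TBI + VH in the hippocampus and 5 in the thalamus at 3 dpi, and no call of a member changed in any comparison. Between regions, libraries of 1 arm and number correlated with a mean r of 0.02 (hippocampus and hypothalamus at 3 dpi) to 0.15 (thalamus and hypothalamus at 29 dpi), where other numbers gave -0.05 to -0.01. Of 16 pairs 3 to 10 were over 0.1 and 5 to 9 libraries were most like their own number, so neither check settles whether numbers mark shared mice or batches. A replicate block within arm, added after seeing the data like the choroid plexus covariate in the thalamus, changed no call of a member between regions. All 48 ratios to Csf1r kept their direction and their side of the threshold with a prior count of 0.5. Depth limits Gpr34 and P2ry13 most, with lowest counts of 54 and 59 in a library.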

Other observations

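Other lists moved by different amounts in the same libraries. In TBI + VH against Sham + VH in the hippocampus at 3 dpi all 6 genes of dividing cells rose, with a median log2 fold change of 3.39 (Mki67 3.54, Top2a 3.54, Cenpf 2.52 and Birc5 2.36). All 4 astrocyte genes rose, from 0.39 ± 0.09 for Slc1a3, a glutamate transporter, to 3.62 ± 0.19 for Gfap, the intermediate filament of reactive astrocytes, with Aldh1l1 at 1.19 ± 0.13 and Aqp4 at 1.45 ± 0.18. Of 11 tested genes of infiltrating and border macrophages 6 rose, with a median of 0.86 (Lyz2, lysozyme, 3.68 ± 0.40, and Cbr2, a reductase, 1.16 ± 0.26). F13a1 and Mrc1 gave 0.86 and 0.73 (adjusted p = 0.0795 and 0.0751, edgeR). Of 5 oligodendrocyte genes 1 rose (Cldn11, a tight junction protein of myelin, 0.91 ± 0.20), while the myelin genes Mbp and Mag gave 0.36 and 0.48 without passing. All 8 choroid plexus genes fell, with a median of -6.05 (Ttr -6.04, Folr1 -4.69, Clic6 -4.25, Otx2 -3.58). None of 5 neuronal genes passed (Snap25 -0.22, Syt1 -0.15, Tubb3 -0.04, Nefl -0.23), and none of 4 endothelial genes did (Cldn5 -0.07, Pecam1 -0.10, Flt1 -0.37, Ly6c1 0.17). Of the neutrophil and T cell lists 1 gene each could be tested, and neither S100a8 (-0.06) nor Cd4 (0.31) passed.

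At 29 dpi in the hippocampus, with drug arms averaged, 9 of 14 disease-associated microglia genes and 10 of 12 genes of microglia and macrophages rose, where 1.59% of genes were called higher. Of the members of these lists chosen after their values were seen, Cst7, a cystatin, changed by 3.66 ± 0.29, Itgax, the integrin CD11c, by 3.93 ± 0.34 and Gpnmb, a glycoprotein, by 1.90 ± 0.13. In the same fit 2 of the 9 homeostatic members passed, Csf1r and Fcrls (0.36 each), and whether the lists differed was not tested.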
